A study of Mus musculus with 4 samples.

Results

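Integrins that bind the Arg-Gly-Asp (RGD) peptide and 3 matrix ligands that carry it were followed by RNA sequencing of poly(A) RNA in 4 libraries of the mouse mesenchymal stem cell line C3H10T1/2. The 10 genes were chosen by symbol from the 54532 gene rows of the count table. The rule names them and uses no measured value, but it was written with earlier results of these data known. They comprise the alpha subunits Itga8, Itga5 and Itgav, the beta subunits Itgb1, Itgb3, Itgb5 and Itgb8, and the ligands Npnt, Fn1 and Vtn. The study asked how loss of DNMT1, the maintenance DNA methyltransferase, bears on the early osteoblast programme. All cells received an siRNA for 48 h, either a control or one directed at Dnmt1. The control and siDNMT1 groups were not induced. The OB and siDNMT1_OB groups were induced towards osteoblasts for 3 days in medium with 50 µM ascorbic acid, 10 mM glycerophosphate and dexamethasone. No uninduced group kept for the same 3 days is described, so induction cannot be told apart from added time in culture or since transfection. Each group was 1 library of 1 cell line, so the intervals below hold counting error only and no spread between replicates.

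Total counts lay between 22296046 (OB) and 27367792 (control), and mitochondrial genes held 2.53% to 2.83% of them. All 8 mesenchymal and fibroblast marker genes were above the expression filter, with a summed level of 24640 to 31183 CPM (counts brought to one library size with TMM factors). Of these, Pdgfra had log2 fold changes of 2.47 for OB against control and 1.56 for siDNMT1_OB against siDNMT1, Thy1 1.22 for siDNMT1_OB against siDNMT1 and Ly6a -1.03 for siDNMT1 against control. Leukocyte markers summed to 10.2 to 12.7 CPM, most of it from Cd14 (169 to 277 counts) and Cd68 (47 to 62 counts), with Ptprc at no more than 2 counts and Adgre1 at 0. Csf1r and Lyz2, the remaining leukocyte markers, lay under the expression filter. Epithelial markers summed to 0.3 to 1.0 CPM, with Epcam at 0. Of these 4 markers 3 had no more than 3 counts in any library, and none passed the filter. Endothelial markers summed to 2.2, 6.2, 3.2 and 7.8 CPM in control, siDNMT1, OB and siDNMT1_OB. These sums were carried by Tek (51, 152, 63 and 203 counts), while Pecam1, Kdr and Cdh5 had at most 8, 4 and 3 counts. Dnmt1 itself had 7195 counts in the control library, 3375 with siDNMT1, 1931 with OB and 2492 with siDNMT1_OB. The log2 fold change was -1.01 (95% counting interval -1.07 to -0.95) for siDNMT1 against control but 0.13 (0.04 to 0.21) for the library labelled siDNMT1_OB against OB, so Dnmt1 mRNA was not lower in the library labelled siDNMT1_OB and every siDNMT1 direction in induced cells rests on that label.

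Integrins are cell surface receptors built from an alpha and a beta subunit that span the membrane and tie the extracellular matrix to the actin cytoskeleton. One subfamily recognises the RGD tripeptide exposed on matrix proteins such as fibronectin, vitronectin and nephronectin, and the alpha subunit largely sets which ligand is bound. In mesenchymal cells and osteoblasts these receptors anchor the cells to matrix, and fibronectin is the scaffold on which collagen fibres are laid down. Alpha8 pairs with beta1 alone and has nephronectin as a high-affinity ligand, alpha5 pairs with beta1 as the classical fibronectin receptor, and alphav pairs with several beta subunits, among them those of Itgb3, Itgb5 and Itgb8.

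The RGD sites of the 3 ligands are shown because these receptors recognise the tripeptide, and whether each site is bound was not tested. They were read from the coding sequence of 1 transcript per gene in GENCODE M21 (GRCm38), 24 coding bases to each side, 5′ to 3′ on the coding strand, with the 3 codons of Arg, Gly and Asp in capitals.
Npnt: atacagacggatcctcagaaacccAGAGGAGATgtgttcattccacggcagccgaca
Fn1, first site: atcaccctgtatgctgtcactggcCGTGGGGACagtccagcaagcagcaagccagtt
Fn1, second site: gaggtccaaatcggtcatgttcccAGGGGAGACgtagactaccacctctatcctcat
Vtn: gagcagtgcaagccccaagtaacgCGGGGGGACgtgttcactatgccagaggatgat

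The Npnt site lies in coding exon sequence at chr3:132904665-132904673 (minus strand, exon 10 of 14) and encodes residues 430 to 432 of 609. The first Fn1 site, at chr1:71606746-71606754 (minus strand, exon 30 of 46), encodes residues 1614 to 1616 of 2477, and the second, at chr1:71597443-71597451 (exon 40), residues 2181 to 2183. The Vtn site at chr11:78499706-78499714 (plus strand, exon 3 of 8) encodes residues 64 to 66 of 478. The tripeptide is not rare in itself, since the coding sequence of 1561 of 21540 genes (7.25%) holds it. Among the 7 receptor subunits only Itga8 carries the letters, at residues 454 to 456 of 1062. No role of that match was tested. The alpha subunits are related but distinct proteins, with 46.0% identical residues between Itga8 and Itga5, 48.6% between Itga8 and Itgav and 47.1% between Itga5 and Itgav. Among the beta subunits identity ran from 38.5% to 54.2%, the latter between Itgb3 and Itgb5.

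DNMT1 acts on cytosine followed by guanine (CG). The 250 bases upstream of the RefSeq start (GRCm38.p6) are therefore shown for Itga8, whose transcript level differed most between libraries, and for its ligand Npnt, on the gene's strand with each CG in capitals. No methylation was measured in the data used here.
Itga8, chr2:12301945-12302194, minus strand: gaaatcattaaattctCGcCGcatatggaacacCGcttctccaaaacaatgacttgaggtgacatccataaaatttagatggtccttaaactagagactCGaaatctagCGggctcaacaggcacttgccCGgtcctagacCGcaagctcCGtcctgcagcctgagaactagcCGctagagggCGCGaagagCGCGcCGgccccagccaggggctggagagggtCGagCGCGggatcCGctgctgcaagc
Npnt, chr3:132950292-132950541, minus strand: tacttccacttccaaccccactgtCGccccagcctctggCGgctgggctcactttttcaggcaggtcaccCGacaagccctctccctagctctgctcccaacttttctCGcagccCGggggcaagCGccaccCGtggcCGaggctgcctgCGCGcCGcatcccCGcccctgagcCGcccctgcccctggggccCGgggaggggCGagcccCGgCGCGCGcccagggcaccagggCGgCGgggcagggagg

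The Itga8 window holds 18 CG and the Npnt window shown 21. A second RefSeq start of Npnt, inside the gene, has a window of 23 CG at chr3:132949815-132950064, matched or exceeded by 13.3% of windows. Of 32851 RefSeq promoter windows of that length, with a median of 6 CG and quartiles of 2 and 16, 21.7% hold at least as many as Itga8 and 16.3% at least as many as the Npnt window shown. CG is a palindrome, so both strands give the same count. Windows were matched for 8 of the 10 genes, not for Itgb3 and Fn1. The others held 9 CG (Vtn), 11 (Itga5), 12 (Itgb8), 18 (Itgav and Itgb5) and 21 (Itgb1). The RefSeq starts of Itga8, Itga5 and Itgb8 match no transcript start in GENCODE M21, and relative to the gene positions of the count table the Itgb8 window lies inside the gene and the Vtn window partly so.

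Gene positions below are those of the count table, on build mm10 (GRCm38). Itga8 (ENSMUSG00000026768, chr2:12106632-12301922, minus strand) encodes the alpha8 subunit and was the gene of the set whose level stood out in every comparison. Its counts were 62 in the control library, 286 with DNMT1 siRNA alone, 536 with induction alone and 2598 in the library labelled siDNMT1_OB, or 2.29, 11.2, 23.7 and 97.1 CPM. The 95% counting intervals of these levels did not overlap, at 1.75 to 2.93, 9.91 to 12.5, 21.7 to 25.8 and 93.4 to 100.9 CPM, and the highest library held 42.5 times the lowest level. The level was thus lowest in control, higher in siDNMT1 and in OB, and highest in the library labelled siDNMT1_OB.

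The log2 fold change of Itga8 was 2.25 (95% counting interval 1.89 to 2.71) for siDNMT1 against control and 2.03 (1.90 to 2.17) for siDNMT1_OB against OB. Against the library of the same siRNA, induction went with a log2 fold change of 3.33 (2.99 to 3.78) with control siRNA and 3.11 (2.94 to 3.30) with DNMT1 siRNA. The siDNMT1 effect in induced cells minus that in uninduced cells was -0.22 on the log2 scale (-0.64 to 0.20), an interval that holds 0, so at this depth the effects on this scale could not be told apart. Counting intervals cover the sampling of reads and not the variation between dishes. Itga8 shares 372 exonic bases (5.05% of its length) with E030013I19Rik on the opposite strand, which had 0, 0, 2 and 9 counts in those libraries. The endothelial marker sum, carried by Tek, was also higher in both libraries with DNMT1 siRNA. Tek had log2 fold changes of 1.62 for siDNMT1 against control and 1.42 for siDNMT1_OB against OB. Pecam1, Kdr and Cdh5 had few counts in all 4 libraries, and a link of these markers to Itga8 was not tested. In bulk RNA a larger number of cells expressing a gene and more of its RNA per cell cannot be told apart.

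**Figure D1:**
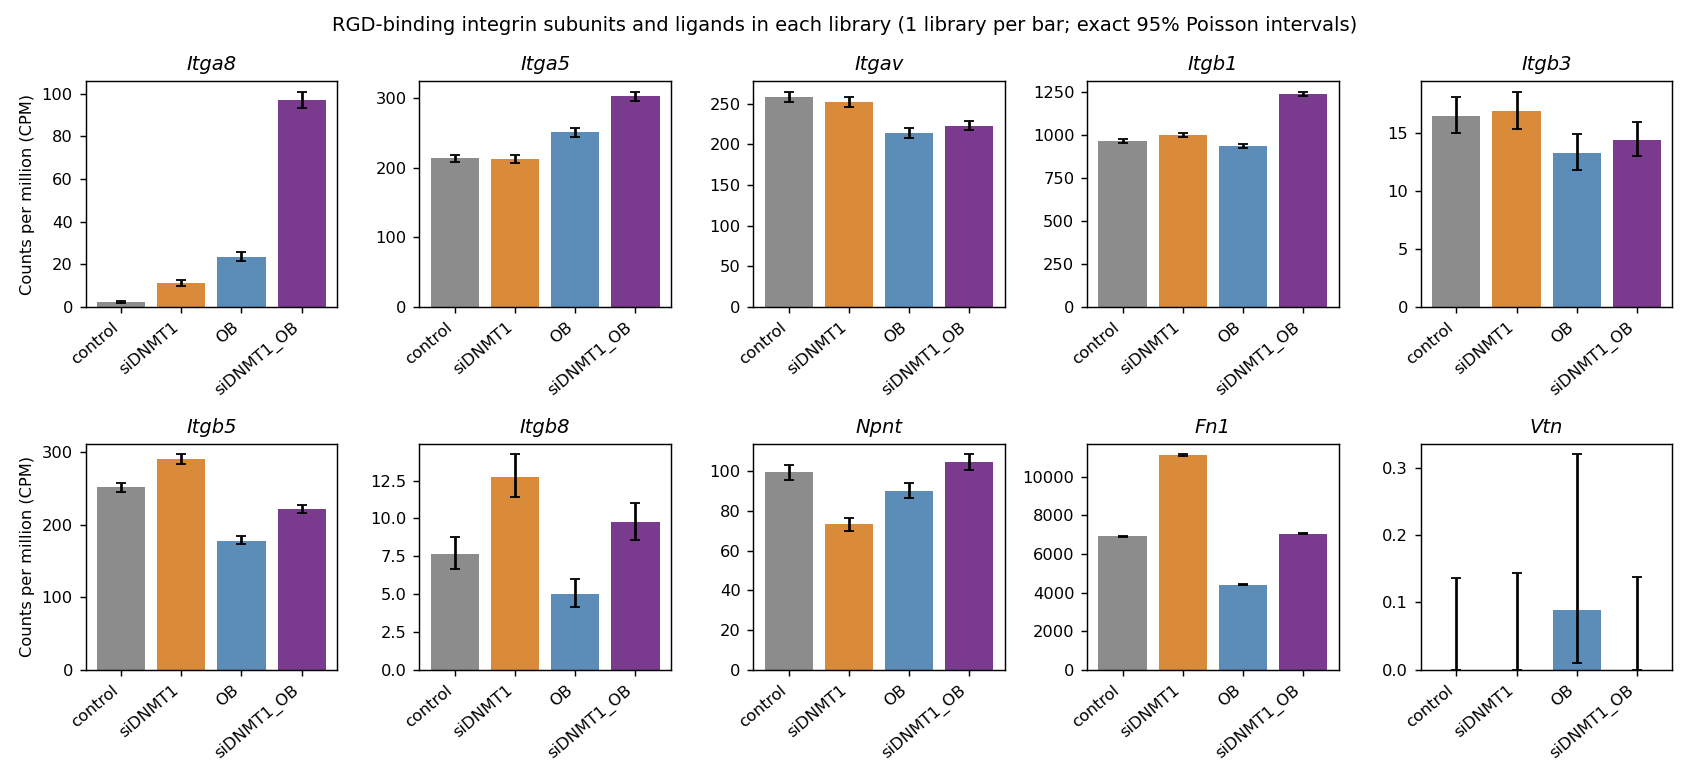
Level of each of the 10 genes in the 4 libraries, in CPM on linear axes from 0 that differ between panels, with exact 95% Poisson intervals as error bars. Itga8 climbs from 2.29 CPM in control to 97.1 CPM in siDNMT1_OB, Fn1 is highest in siDNMT1 at 11104 CPM, and Vtn has counts in OB alone.

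Itga5 (ENSMUSG00000000555, chr15:103344286-103366763, minus strand), which encodes the alpha subunit of the fibronectin receptor, had 5778, 5426, 5660 and 8077 counts in control, siDNMT1, OB and siDNMT1_OB. Its levels of 213 CPM in control and 212 CPM in siDNMT1 had overlapping intervals, OB stood at 250.3 CPM and siDNMT1_OB was highest at 302 CPM. Its log2 fold change was -0.01 (-0.06 to 0.05) for siDNMT1 against control, 0.27 (0.22 to 0.32) for siDNMT1_OB against OB, 0.23 (0.18 to 0.29) for OB against control and 0.51 (0.46 to 0.56) for siDNMT1_OB against siDNMT1. All of these lay inside the threshold of 1 in size.

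Itgav (ENSMUSG00000027087, chr2:83724397-83806916, plus strand), the alpha subunit shared by the vitronectin receptors and the receptors that release latent TGF-beta, had 7012, 6467, 4833 and 5970 counts. The uninduced libraries were the higher ones, with 259 CPM in control and 252 CPM in siDNMT1 against 214 CPM in OB and 223 CPM in siDNMT1_OB. Within each pair that shared its induction state the counting intervals overlapped. Its log2 fold changes with DNMT1 siRNA were -0.03 (-0.08 to 0.01) and 0.06 (0.01 to 0.12), and with induction -0.27 (-0.33 to -0.22) and -0.18 (-0.23 to -0.13). Itgav shares 634 exonic bases (5.90%) with Gm13684 on the opposite strand, which had at most 7 counts.

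The partner of both alpha5 and alpha8, Itgb1 (ENSMUSG00000025809, chr8:128685654-128733200, plus strand), had 26289, 25604, 21178 and 33174 counts. Its 969 CPM in control, 999 CPM in siDNMT1 and 936 CPM in OB lay close together, though beyond each other's counting intervals, and siDNMT1_OB was highest at 1240 CPM. The siDNMT1 log2 fold change was 0.04 (0.02 to 0.07) in uninduced and 0.40 (0.38 to 0.43) in induced cells, a difference of 0.36 (0.33 to 0.40). With induction it was -0.05 (-0.08 to -0.02) after control siRNA and 0.31 (0.29 to 0.33) after DNMT1 siRNA. None reached the size threshold.

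Itgb5 (ENSMUSG00000022817, chr16:33829665-33949338, plus strand), a partner of alphav, had 6829, 7435, 4031 and 5919 counts. The order of its levels was siDNMT1 (290.2 CPM), control (252 CPM), siDNMT1_OB (221 CPM) and OB (178 CPM), with no overlap between the intervals of neighbours. Its log2 fold change was 0.20 (0.16 to 0.25) and 0.31 (0.25 to 0.37) with DNMT1 siRNA in uninduced and induced cells, and -0.50 (-0.55 to -0.44) and -0.39 (-0.44 to -0.34) with induction after control and DNMT1 siRNA.

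Itgb3 (ENSMUSG00000020689, chr11:104608000-104670476, plus strand), the beta subunit of the vitronectin receptor known from osteoclasts and platelets, had 448, 433, 301 and 386 counts or 16.5, 16.9, 13.3 and 14.4 CPM. In the order siDNMT1, control, siDNMT1_OB and OB, each pair of neighbours had overlapping intervals. The log2 fold changes with DNMT1 siRNA, 0.03 (-0.16 to 0.23) and 0.12 (-0.11 to 0.34), had intervals that held 0. With induction they were -0.31 (-0.53 to -0.10) and -0.23 (-0.43 to -0.03).

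Itgb8 (ENSMUSG00000025321, chr12:119158022-119238802, minus strand), whose product pairs with alphav and binds latent TGF-beta, came closest to the threshold after Itga8. Its counts were 207, 327, 113 and 261 in control, siDNMT1, OB and siDNMT1_OB, or 7.63, 12.8, 5.0 and 9.75 CPM. Both libraries with DNMT1 siRNA were above both with control siRNA. The intervals of control and siDNMT1_OB, neighbours in that order, overlapped. Its log2 fold change was 0.74 (0.49 to 1.00) for siDNMT1 against control and 0.95 (0.64 to 1.30) for siDNMT1_OB against OB, and -0.60 (-0.95 to -0.27) and -0.39 (-0.63 to -0.15) with induction. The counting interval in induced cells extended past 1, and that in uninduced cells reached 1.00. At this depth the counts do not settle on which side of the threshold Itgb8 lies.

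Among the ligands, Fn1 (ENSMUSG00000026193, chr1:71585520-71653200, minus strand), which encodes fibronectin, had the most counts of the set, with 187183, 284492, 99704 and 188671 in control, siDNMT1, OB and siDNMT1_OB. Its levels were 6901, 11104, 4409 and 7050.5 CPM, so siDNMT1 was highest and OB lowest, and control and siDNMT1_OB lay between them, close together though with intervals that did not overlap. The log2 fold change was 0.69 (0.68 to 0.69) and 0.68 (0.67 to 0.69) with DNMT1 siRNA in uninduced and induced cells, with a difference of -0.01 (-0.02 to 0.01). With induction it was -0.65 (-0.66 to -0.64) after control siRNA and -0.66 (-0.66 to -0.65) after DNMT1 siRNA. On the log2 scale the siRNA and induction values of Fn1 were thus near the same size and opposite in sign. The narrow intervals reflect the large counts only. Fn1 shares 292 exonic bases (2.50%) with Apol7d on the opposite strand, which had at most 15 counts.

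Npnt (ENSMUSG00000040998, chr3:132881745-132950291, minus strand) encodes nephronectin, the ligand of the alpha8 receptor, and had 2697, 1876, 2039 and 2796 counts. It was lowest in siDNMT1 at 73.2 CPM, followed by OB at 90.2 CPM, control at 99.4 CPM and siDNMT1_OB at 104 CPM, the intervals of the last 2 overlapping. The siDNMT1 log2 fold change was -0.44 (-0.53 to -0.36) in uninduced cells and 0.21 (0.13 to 0.30) in induced cells, a difference of 0.65 (0.54 to 0.77) on the log2 scale. With induction it was -0.14 (-0.22 to -0.06) after control siRNA and 0.51 (0.43 to 0.60) after DNMT1 siRNA. The values were of opposite sign in both arrangements, and each lay inside the threshold. The transcript of the ligand therefore did not follow that of Itga8, whose lowest library, control, was the second highest for Npnt.

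Vtn (ENSMUSG00000017344, chr11:78499091-78502324, plus strand), which encodes vitronectin, a plasma protein made mainly by liver, had 2 counts in OB and 0 in each of the other libraries. A level of 3 counts, the floor used here, equals 0.111, 0.117, 0.133 and 0.112 CPM in control, siDNMT1, OB and siDNMT1_OB. Vtn lay under it in every library and no fold is given.

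In total 9 of the 10 genes had a mean of at least 1 CPM over the libraries and were compared, all but Vtn. With siDNMT1 against control, 1 of 9 (Itga8) was higher by at least 1 on the log2 scale and 0 were lower, against 1.97% of 13233 genes higher and 1.37% lower. In siDNMT1_OB against OB, the count was again 1 higher and 0 lower, against 2.36% and 1.37% of all genes. In OB against control, Itga8 was again the 1 higher and 0 were lower, against 10.6% and 7.10% of all genes. In siDNMT1_OB against siDNMT1, 1 was higher and 0 were lower, against 6.83% and 2.71%. With 9 genes, 1 call is a count too small to set apart from these shares. Where an additive edgeR fit over the 4 libraries also had to pass, the count in either direction was 0 for both siDNMT1 comparisons, against 0% of all genes in each, 1 for OB against control, against 13.5%, and 1 for siDNMT1_OB against siDNMT1, against 8.40%. Where an edgeR test with an assumed coefficient of variation of 0.4 had to pass, it was 1 for OB against control, against 1.25% of all genes, and 0 for siDNMT1 against control (0.0227%), siDNMT1_OB against OB (0%) and siDNMT1_OB against siDNMT1 (0.506%). With a coefficient of 0.2 it was 1 in each comparison, against 0.438% for siDNMT1 against control, 0.416% for siDNMT1_OB against OB, 12.9% for OB against control and 4.58% for siDNMT1_OB against siDNMT1. The zeros of the siDNMT1 comparisons under the stricter tests thus hold for nearly all of the 13233 genes compared. Itga8 alone stood at the 99.85th percentile of all log2 fold changes with siDNMT1 against control, the 99.80th in siDNMT1_OB against OB, the 99.05th in OB against control and the 99.37th in siDNMT1_OB against siDNMT1.

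The medians of the 9 log2 fold changes were 0.04 for siDNMT1 against control, 0.31 for siDNMT1_OB against OB, -0.27 for OB against control and -0.18 for siDNMT1_OB against siDNMT1. Over all genes compared the medians were 0.00, 0.01, 0.01 and 0.00. Values above 0 were found for 6 of 9 genes with siDNMT1 in uninduced cells, against 49.7% of all genes compared. That count is not settled. The counting intervals of Itga5, Itgav and Itgb3 held 0 there, and Itga5 (-0.01) was above 0 with total counts and with upper quartile scaling. In induced cells values above 0 were found for 9 of 9, against 52.2%, though the counting interval of Itgb3 (-0.11 to 0.34) held 0. Of the lists described below, 8 of 11 other integrin subunits, 12 of 15 other ligands and 15 of 23 focal adhesion genes were above 0 there. Of the latent TGF-beta genes 2 of 5 were. The direction of siDNMT1_OB against OB rests on the label of siDNMT1_OB, in which Dnmt1 mRNA was not lower. With the labels of OB and siDNMT1_OB exchanged, 0 of 9 would be above 0 in that comparison. The induction counts that follow rest on the same labels. With induction 2 of 9 (Itga8 and Itga5) were above 0 after control siRNA and 4 of 9 after DNMT1 siRNA, where Itgb1 and Npnt joined them, against 50.7% and 50.1% of all genes. The comparisons of siDNMT1 against control and of OB against control share the control library, and each other library is likewise shared by a pair of comparisons.

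**Figure D2:**
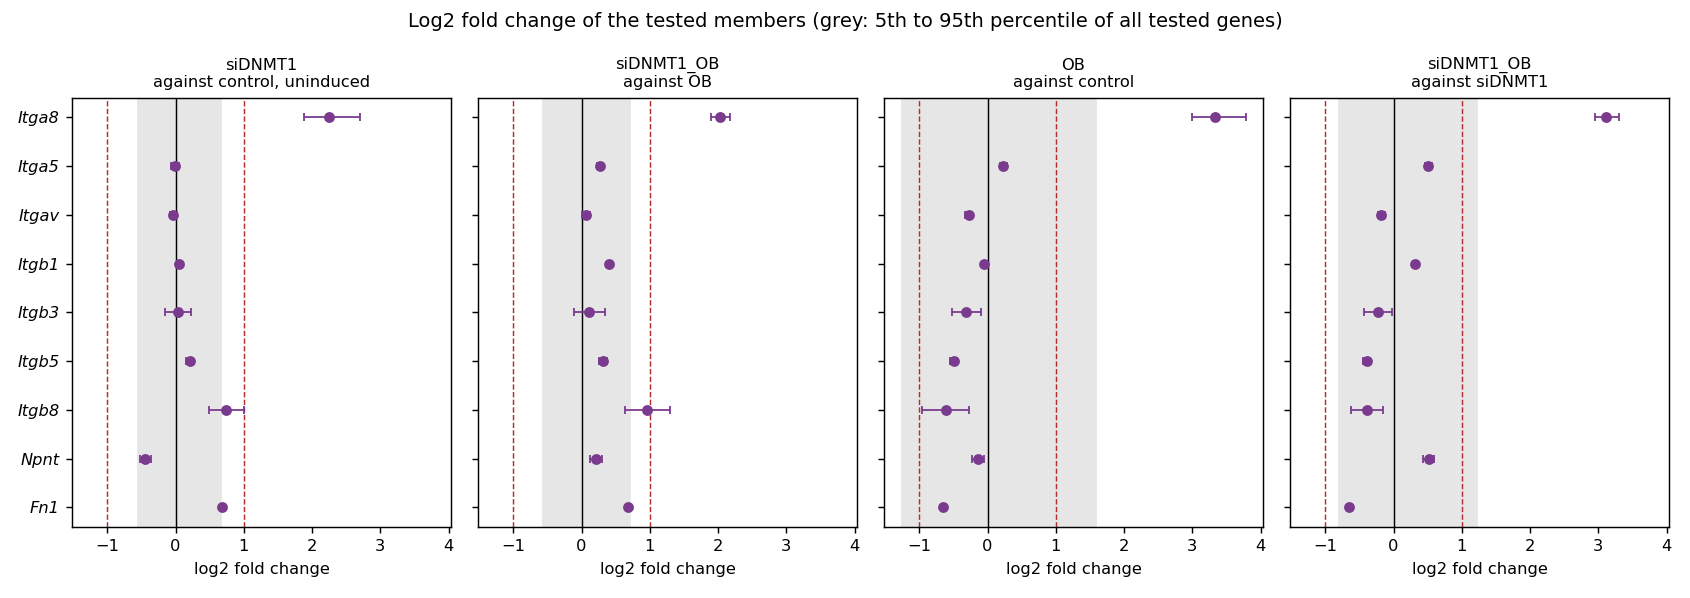
Log2 fold change of the 9 compared genes in the 4 comparisons, with 95% counting intervals, dashed lines at 1 in size and a grey band for the 5th to 95th percentile of all genes compared. Itga8 lies past the threshold in all 4 comparisons, from 2.03 to 3.33, and the points of the other 8 genes lie inside it.

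Counts depend on transcript length, so levels of different genes were compared as CPM per kilobase of the exon length given for each gene in the count table. Among the alpha subunits, Itga5 was the most abundant in every library at 43.2, 42.9, 50.7 and 61.2 CPM per kilobase in control, siDNMT1, OB and siDNMT1_OB, followed by Itgav at 24.1, 23.5, 19.9 and 20.8. Itga8 stood at 0.310, 1.52, 3.22 and 13.2 CPM per kilobase. Its share of the summed level of the 3 alpha subunits was therefore 0.459%, 2.23%, 4.36% and 13.9% in the same order. Itgav went from 35.6% in control to 21.8% in siDNMT1_OB, while Itga5 held 63.2% to 68.7%. A transcript that was marginal in control thus remained the least abundant of the 3 alpha subunits where it was highest.

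Among the beta subunits Itgb1 held 76.2%, 74.1%, 81.3% and 82.2% of the summed level per kilobase, and Itgb5 22.7%, 24.7%, 17.8% and 16.9%. Itgb3 lay between 2.26 and 2.86 CPM per kilobase and Itgb8 between 0.452 and 1.15, both under the 50.2 of Itgb5 in OB, its lowest library. Itgb1, at 229 to 304 CPM per kilobase, exceeded the summed level of the 3 alpha subunits, 67.6 to 95.1, in each library. Of the ligands, Fn1 was the most abundant gene of the whole set in each library, at 591, 950.3, 377 and 603 CPM per kilobase while Npnt stood at 19.8, 14.6, 17.9 and 20.8.

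**Figure D3:**
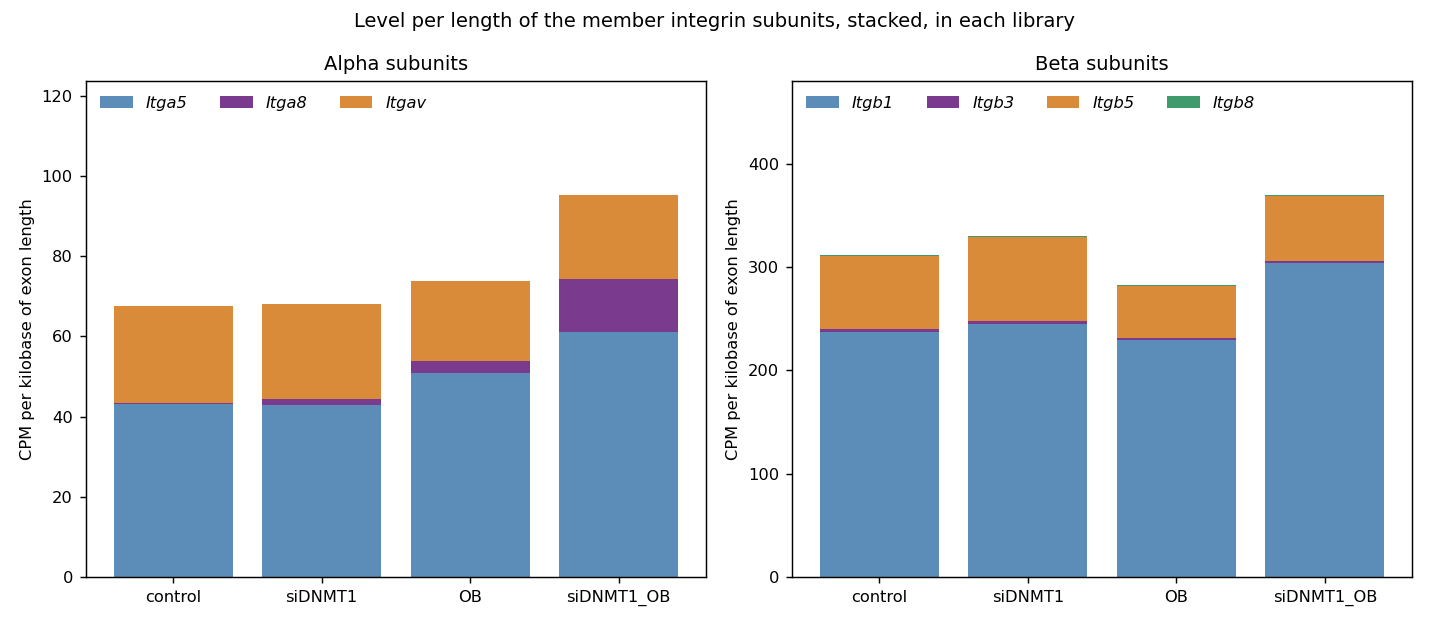
Stacked level per length of the 3 alpha subunits (left) and the 4 beta subunits (right) in the 4 libraries, in CPM per kilobase of exon length, on axes from 0. The Itga8 segment grows from 0.310 in control to 13.2 in siDNMT1_OB, where the alpha subunits sum to 95.1, and Itgb1 forms most of each beta bar.

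The genes whose pattern over the 4 libraries lay closest to that of Itga8, by root mean square difference of centred log2 CPM among 10824 genes with a mean of at least 5 CPM, were Trpv2 (0.32), Depp1 (0.43), Matn4 (0.48), Lmod1 (0.50) and Rasl11b (0.51). The median over those genes was 1.95. Trpv2, a cation channel gene annotated here as a processed transcript, had 14, 60, 82 and 384 counts in control, siDNMT1, OB and siDNMT1_OB. Matn4, a matrix adaptor of the matrilin family, had 44, 132, 367 and 819, and Lmod1, an actin filament nucleator of smooth muscle, 134, 694, 1307 and 2748. These genes were chosen for their closeness to Itga8 over the same 4 libraries, so neither their order nor their fold changes are a separate result. Trpv2 was above 5 CPM in siDNMT1_OB alone, at 14.3 CPM, and passed the filter through that library. In siDNMT1_OB against OB the log2 fold change was 1.96 for Trpv2 but 0.97 for Depp1, 0.91 for Matn4, 0.83 for Lmod1 and 0.63 for Rasl11b, against 2.03 for Itga8. Npnt varied little, and its 5 closest genes, Csrnp1, S100a11, Fut8, Morc4 and Gm15427, lay within 0.04 to 0.06 of it against a median of 0.28. Gm15427 is annotated as a pseudogene and its counts are uncertain.

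The other integrin subunits, 19 genes of which 11 passed the filter, were read beside the set. With siDNMT1 against control 1 was higher by at least 1 and 1 was lower, and in siDNMT1_OB against OB 0 were higher and 0 lower. With induction 5 were higher and 2 lower after control siRNA, and 5 higher and 0 lower after DNMT1 siRNA. Over all genes 1.97% were higher and 1.37% lower, 2.36% and 1.37%, 10.6% and 7.10%, and 6.83% and 2.71% in these 4 comparisons, the shares against which the lists below are also to be read. The medians were -0.32, 0.26, 0.65 and 0.45 in the order siDNMT1 against control, siDNMT1_OB against OB, OB against control and siDNMT1_OB against siDNMT1.

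Of the collagen receptors, Itga1 had 163, 321, 1094 and 1360 counts, with log2 fold changes of 1.05 and 0.07 with DNMT1 siRNA in uninduced and induced cells and 2.99 and 2.01 with induction after control and DNMT1 siRNA. Itga10, also a collagen receptor subunit, had 42, 34, 129 and 291 counts and log2 fold changes of 1.83 and 2.96 with induction. Itga1 was thus past the threshold with DNMT1 siRNA in uninduced cells and near 0 in induced cells, where Itga8 stood at 2.03. The counting interval of Itga1 in uninduced cells, 0.78 to 1.34, holds 1, so its side of the threshold is not settled.

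Of the laminin receptors, Itga3 had 235, 142, 557 and 1208 counts and log2 fold changes of 1.50 and 3.01 with induction. Itga6 went the other way after control siRNA, with 2912, 1913, 606 and 1300 counts and log2 fold changes of -2.00 and -0.62. Itgb4, the partner of alpha6 in hemidesmosomes, was at 1.42 after either siRNA, with 106, 80, 240 and 227 counts. The 4 tested genes of this list therefore held members in both directions after control siRNA.

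Itgb7, a partner of alpha4 on lymphocytes, had 377, 84, 52 and 47 counts, highest in control, with log2 fold changes of -2.06 for siDNMT1 against control and -2.56 for OB against control. Itga9, a receptor subunit for tenascin and other matrix proteins, had 52, 35, 97 and 178 counts and log2 fold changes of 1.13 and 2.22 with induction. Itga2b, the RGD-binding subunit of the platelet receptor, had 271, 245, 356 and 289 counts and no log2 fold change past 1, and Itgb6 had at most 28 counts. The 6 leukocyte integrin genes summed to 1.3 to 1.7 CPM, with 4 of them at no more than 3 counts in any library.

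Other ligands known to carry RGD were followed as a list of 21 genes, of which 15 passed the filter and 19 hold the tripeptide in the coding sequence read here (Tnc and Cyr61 do not in these mouse models). With siDNMT1 against control 0 were higher and 1 was lower, and in siDNMT1_OB against OB 3 were higher and 0 lower. With induction 4 were higher and 4 lower after control siRNA, and 4 higher and 1 lower after DNMT1 siRNA. Medians were 0.00, 0.16, -0.20 and 0.23. After induction with control siRNA the list thus held as many genes past the threshold below 0 as above it. Among those above it, Edil3 (1.01, 0.87 to 1.15) and Tgfbi (1.05, 0.86 to 1.24) had counting intervals that held 1. The equality therefore rests on values close to the threshold.

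Thbs1, which encodes the matricellular protein thrombospondin-1, had 3242, 5529, 2974 and 14865 counts, with a log2 fold change of 0.85 for siDNMT1 against control, 2.08 for siDNMT1_OB against OB and 1.36 for siDNMT1_OB against siDNMT1. Tnc, the matrix glycoprotein tenascin-C, had 3660, 4173, 8547 and 14332 counts, at 1.49 and 1.72 with induction. Igfbp2, which binds insulin-like growth factors, had 39, 64, 28 and 191 counts and stood at 2.45 in siDNMT1_OB against OB and 1.49 in siDNMT1_OB against siDNMT1. Dmp1, a mineralisation protein of osteocytes, had 80, 62, 8 and 37 counts, at -2.81 for OB against control and 1.76 for siDNMT1_OB against OB. Of these 4, Thbs1, Igfbp2 and Tnc were highest in siDNMT1_OB, as Itga8 was. Spp1, encoding the RGD-bearing bone matrix protein osteopontin and chosen after its values were seen as the 1 gene lower with siDNMT1 in uninduced cells, had 14862, 5270, 4226 and 7261 counts. Its log2 fold change was -1.41 there, 0.54 in siDNMT1_OB against OB, -1.55 in OB against control and 0.40 in siDNMT1_OB against siDNMT1.

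Integrin signals pass through focal adhesions, and 23 of 24 genes of integrin activation and focal adhesion passed the filter. With siDNMT1 against control 1 was higher and 0 were lower, and in siDNMT1_OB against OB likewise 1 and 0. Both calls were Lims2, the latter at 1.01, so close to the threshold that this count is not settled. With induction 3 were higher and 2 lower after control siRNA, and 2 higher and 1 lower after DNMT1 siRNA, with list medians from -0.02 to 0.15 over the 4 comparisons. Lims2, which encodes the adaptor PINCH-2, had 64, 154, 306 and 733 counts and log2 fold changes of 1.32, 1.01, 2.48 and 2.17 in the order used above. Tns1, an actin-linking adaptor of fibrillar adhesions, had 1559, 2209, 8959 and 14869 counts and stood at 2.78 and 2.69 with induction. Zyx, encoding the focal adhesion protein zyxin, had 21885, 13788, 5461 and 6785 counts and stood at -1.74 and -1.09. Tns3, a related tensin, had 5206, 6105, 11113 and 11232 counts and stood at 1.36 and 0.82 with induction. Lims2 was thus the gene outside the set and inside these lists that was past the threshold in all 4 comparisons, as Itga8 was. Unlike Itga8, it was only just past in siDNMT1_OB against OB, where its counting interval of 0.82 to 1.21 holds 1. With total counts the median shift in that comparison was -0.028, so that call of Lims2 is not settled.

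Alphav receptors with beta6 or beta8 release TGF-beta from its latent complex, and 5 of 6 genes of latent TGF-beta storage and presentation passed the filter. None of the 5 was past the threshold in any comparison, with medians of -0.10, -0.16, 0.05 and 0.00.

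**Figure D4:**
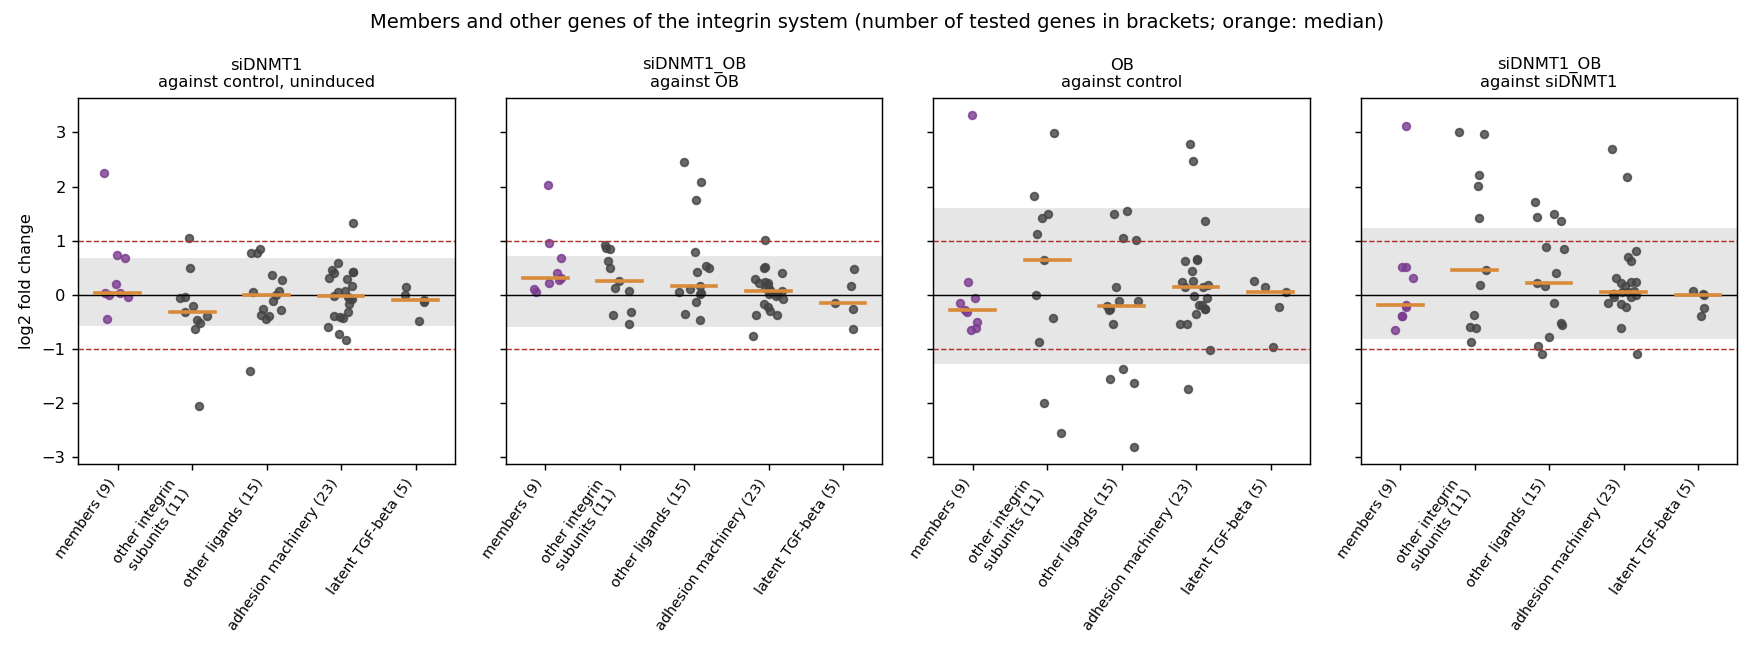
Log2 fold change of each gene that passed the filter, in the 4 comparisons, for the set, the other integrin subunits, the other ligands, the focal adhesion genes and the latent TGF-beta genes, with the median of each list as an orange bar, dashed lines at 1 in size and a grey band for the 5th to 95th percentile of all genes compared. The medians of the set lie between -0.27 and 0.31, and its highest point in each panel is Itga8.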

How the data were processed

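The 4 libraries, 1 per group, came as raw counts of reads for each gene, which the authors deposited without normalization, beside gene positions and exon lengths. Per the study's methods and the submitters' processing notes, Trimmomatic trimmed the reads, HISAT2 aligned them and featureCounts counted them, and the notes name the build mm10. Their versions for the RNA reads, use of strand and treatment of reads with several positions are not given in the sources used here, so bases shared with a gene on the opposite strand are stated. The table has no columns of other samples or of fold changes.

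CPM used TMM factors (0.991 to 1.01) from edgeR 4.0.16 (R 4.3.3). Genes were compared where CPM averaged at least 1 over the libraries, 13233 of 54532. Log2 fold changes were taken from CPM with a prior count of 2, and a size of at least 1 was the threshold. For fold changes 95% intervals are Clopper-Pearson (exact), for levels exact Poisson and for the difference of effects Wald. The floor was 3 counts. Without molecular identifiers on the reads, these limits describe counting error and nothing else. Tables were handled in Python 3.11.15 (pandas 2.3.3, scipy 1.17.1), and the scripts were tested on simulated data.

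All 10 genes are named. Of each further list, genes past the threshold in at least 1 comparison are named, at most 4, and for Itga8 and Npnt the 5 genes of closest pattern averaging at least 5 CPM, by root mean square difference. The genes and lists were chosen with earlier results of these data known. Alternatives were other scalings (total counts, upper quartile, DESeq2 1.42.0 size factors, TMM over all genes), prior counts of 0.5 and 5, other filters and added tests of the call. The siRNA was given to cells of 1 line, and whether each library came from 1 dish is not given in the sources used here.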

Additional observations from a re-analysis of the deposited data

Results flagged for a closer look

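Npnt had siDNMT1 log2 fold changes of opposite sign in uninduced (-0.44) and induced cells (0.21), a difference of 0.65. The same 4 libraries give induction values of -0.14 after control siRNA and 0.51 after DNMT1 siRNA, with the same difference of 0.65. Itgb1 had an induction value of -0.05 after control siRNA and 0.31 after DNMT1 siRNA, a difference of 0.36. With 1 library per group the difference was not tested for either gene beyond its counting interval. Both differences involve the library labelled siDNMT1_OB, in which Dnmt1 mRNA was not lower than in OB.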

How the results depend on the processing

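With 1 library per group no library could be left out. No paired analysis was possible because each group has 1 replicate, so the replicate number cannot be a block. The additive fit described here uses induction state as a term instead. A filter leaves the fold of a gene as it is, so member values were compared under the other scalings and prior counts. Of 216 log2 fold changes, 196 stayed within their counting interval, as did 50 of 54 differences of effects. The other 20 and 4 belong to Itgb1 and Fn1, whose intervals are narrow. The largest move of any value was 0.063, that of Itga8 in OB against control with a prior count of 5. Signs changed near 0, for Itga5 in siDNMT1 against control from -0.01 to 0.01 with total counts and 0.00 with upper quartile scaling, and for the Fn1 difference of effects from -0.01 to 0.02 with DESeq2 size factors and 0.00 with TMM over all genes. The 24 values past the threshold, all of Itga8, were past it under each of these settings. TMM over all genes was chosen after seeing the data.

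With no filter on low counts the number past the threshold became 2 in siDNMT1_OB against OB and 2 in OB against control, and 1 gene had a difference of effects past it, because Vtn, with 2 counts in OB, entered. When edgeR with an assumed coefficient of variation of 0.4 was added to the call, 0 remained in siDNMT1 against control, 0 in siDNMT1_OB against OB and 0 in siDNMT1_OB against siDNMT1, and 1 in OB against control. The unadjusted p-values of Itga8 there were 0.0106, 0.019, 0.000565 and 0.000274 in the order of these comparisons. With a coefficient of 0.2 Itga8 passed in all 4 comparisons, with adjusted p from 2.63e-10 to 0.00192. With an additive edgeR quasi-likelihood fit of siRNA and induction, which assumes that the effects add, 0 of 9 genes passed in siDNMT1 against control and 0 in siDNMT1_OB against OB, while 3 (Itga8, Itgb8 and Fn1) had an unadjusted siRNA p under 0.05, against 8.71% of all genes. The adjusted siRNA p of Itga8 was 0.128. For induction 5 of 9 had an unadjusted p under 0.05, against 38.0% of all genes, and 2 an adjusted one, against 21.4%, Itga8 at 0.00184 and Fn1 at 0.0128. The cause was not tested.

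The counts over all genes moved by over 1.5 times with the filter and the added tests. In siDNMT1 against control, 261 higher and 181 lower became 1379 and 1219 with no filter, 110 and 91 at a mean CPM of at least 5, 35 and 23 with a coefficient of 0.2, 0 and 3 with 0.4, and 0 and 0 in the additive fit. In siDNMT1_OB against OB, 312 and 181 became 1381 and 1892, 185 and 72, 35 and 20, 0 and 0, and 0 and 0. In OB against control, 1404 and 940 became 4080 and 2062 with no filter, 823 and 730 at a mean CPM of at least 5, and 146 and 19 with a coefficient of 0.4. In siDNMT1_OB against siDNMT1, 904 and 358 became 2550 and 1316, 508 and 229, and 65 and 2, and 501 and 105 with 0.2.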

Other observations

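Further genes of the ligand list, chosen after their values were seen, were past the threshold with induction. Fbn2, encoding the microfibril protein fibrillin-2, had a log2 fold change of 1.55 for OB against control, Tgfbi, a secreted matrix adhesion protein, 1.05, and Edil3, a ligand of alphav receptors, 1.01. Edil3 was also past it in siDNMT1_OB against siDNMT1 at 1.44. Fbln5, encoding the elastic fibre protein fibulin-5, stood at -1.63 and -1.09 in the same comparisons, and Cyr61, an integrin-binding matricellular protein without RGD in the mouse model read here, at -1.38 in OB against control.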
